A study of Homo sapiens with 42 samples.

Results

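The comparison was between OCI-AML3 cells given the menin inhibitor VTP-50469 together with the MEK inhibitor selumetinib (the combination) and OCI-AML3 cells given VTP-50469 without selumetinib, both collected at day 3. It was chosen by the sample labels, takes in every gene of the count table, and rests on 6 of the 42 libraries of the series, 3 in each group. Each drug was given at 100 nM. OCI-AML3 is a human acute myeloid leukaemia line that the labels describe as NPM1c+, meaning that it carries the mutant nucleophosmin that is held in the cytoplasm, so all groups share that allele and all come from 1 cell line. For reference, the same line was sequenced after selumetinib without VTP-50469 (3 libraries), after DMSO, the solvent, at day 3 (3 libraries), and after the combination and VTP-50469 at day 6 (3 libraries each). The labels write the number of the menin inhibitor in 2 ways and do not say for how long selumetinib was present in the combination. Whether replicate libraries go back to different cultures is not stated either, so the p-values measure the spread between libraries, which may be technical.

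Menin is a scaffold protein that tethers the KMT2A histone methyltransferase to chromatin, and in leukaemias with mutant NPM1 or rearranged KMT2A this complex keeps stem-cell genes such as the HOX genes and MEIS1 switched on. MEK is the kinase that phosphorylates and activates ERK, the last kinase of the RAS-RAF-MEK-ERK cascade, which carries growth signals from cytokine receptors to the nucleus. Active ERK induces immediate early transcription factors, D-type cyclins and MYC, and it also induces its own inhibitors, the Sprouty and SPRED proteins and the dual-specificity phosphatases, so that the RNA of these inhibitors is widely used as a readout of ERK activity. The series compared the drugs to study how menin and MEK inhibition act together on gene expression, and the day 3 comparison asks what selumetinib adds to VTP-50469.

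Totals of the 6 libraries lay between 17441908 and 19566142 counts, and between 18197 and 21023 genes had at least 1 count. VTP-50469 replicate 2 stood apart from its partners: the chi-square value per gene between it and replicates 1 and 3 was 34.9 and 33.8, against 4.5 between replicates 1 and 3, while the 3 pairs of combination libraries gave 12.6 to 13.8. Over all genes tested, that library was nearer to the mean of VTP-50469 at day 6 (root mean square log2 difference 0.584) than the mean of replicates 1 and 3 was (0.767). The counts and gene lists are given with and without it, and of the 152 genes named, 141 had the same call in both fits. The other 11 were BST2, ELANE, EPOR, HLA-DQB1, IFIT1, IFIT3, ISG15, MEIS1, MX1, NRAS and OAS1. Of these, BST2, an interferon-induced membrane protein (-0.24, adjusted p = 0.00609; -0.16 and 0.0543 without it), and the MHC class II gene HLA-DQB1, which had no count with VTP-50469 and under 1 CPM in the combination (adjusted p = 0.0376, and 0.0797 without it), are not described further. Mitochondrially encoded genes took 6.16% ± 0.169 of the counts in combination libraries and 2.99% ± 0.607 in VTP-50469 libraries (SD, n = 3 each), and 3.66% in VTP-50469 replicate 2. Markers of the myeloid line were present: 9 of 10 reached 5 CPM (a gene's counts scaled by the TMM-adjusted total of its library), and MPO, the myeloperoxidase gene, was at about 1 CPM (1 CPM in the combination and 1.04 CPM with VTP-50469). Of the markers of other cells, 10 of 12 erythroid genes, all the globins among them, had no count in either group, and EPOR, the erythropoietin receptor, was the only one above 5 CPM (23.2 CPM in the combination and 17.9 CPM with VTP-50469; log2 fold change 0.38, adjusted p = 0.0249; 0.28 and 0.134 without replicate 2). The 8 B cell markers summed to 24.8 to 32.8 CPM in combination libraries and to 12.4 to 16.9 CPM in VTP-50469 libraries. Of them 3 had no count in either group, and EBF1, a B cell transcription factor, was the only one above 5 CPM (27.6 CPM in the combination and 14 CPM with VTP-50469; 0.98, adjusted p = 1.31e-05; 1.10 without replicate 2). The 10 epithelial and stromal markers summed to 17.9 to 22.4 CPM in combination libraries and to 10.01 to 32.3 CPM in VTP-50469 libraries, the highest being replicate 2. Of them 2 reached 5 CPM, and they moved in opposite directions. A smooth muscle actin gene had 16.7 CPM in the combination and 7.34 CPM with VTP-50469, and a type I collagen gene 1.88 and 7.8 CPM. None of the 8 megakaryocyte markers reached 5 CPM. The 10 T and NK cell markers summed to 378 to 422 CPM in combination libraries and to 299.6 to 314 CPM in VTP-50469 libraries, and CD4, which monocytic cells also express, was the only one above 5 CPM. The part of mitochondrial reads and of these markers in the results was not tested.

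Adding selumetinib changed a large share of the transcriptome. Of 16384 genes tested, 2980 (18.2%) were higher and 3927 (24%) were lower in the combination, 42.2% in all, at an adjusted p under 0.05 (edgeR quasi-likelihood test with Benjamini-Hochberg adjustment, as for every adjusted p given here). At least 2-fold changes, that is a log2 fold change beyond 1, were found in 948 genes that were higher and 1211 that were lower. Without VTP-50469 replicate 2 the test called 2935 genes higher (17.9%) and 3858 lower (23.5%), 41.5% in all. Both fits shared 6144 calls in the same direction, which is 89% of the first set and 90.4% of the second. In 7894 genes (48.2%) the 3 combination libraries did not overlap with the 3 VTP-50469 libraries. In bulk RNA, fewer cells with a transcript and less of it per cell cannot be told apart. Because these shares are so high, a count of called genes in a gene list is read against them.

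**Figure D1:**
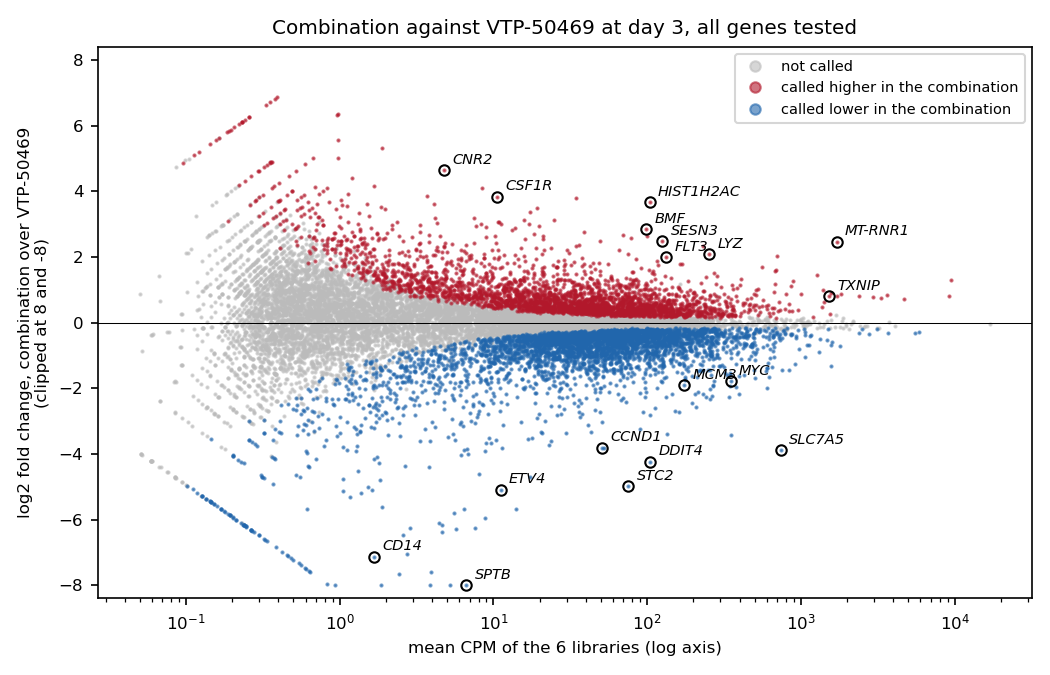
Each point is 1 of the genes tested, with the mean CPM of the 6 libraries on the horizontal log axis and the log2 fold change of the combination over VTP-50469 on the vertical axis. Red points were called higher and blue points lower; the falls of STC2 (-4.98), DDIT4 (-4.23) and SLC7A5 (-3.87) lie far from the other genes of their level, as do the rises of HIST1H2AC (3.68) and MT-RNR1 (2.47).

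The 10 largest rises among genes with at least 5 CPM in 1 group were those of CNR2, FAM13A, HIST1H4H, CSF1R, HIST1H2BD, HIST1H2AC, FGD2, NAPSB, S100A8 and B3GALT4. CNR2, the cannabinoid receptor of leukocytes, had 8.28, 10.2 and 8.89 CPM in combination libraries and 0.155, 0.753 and 0.153 CPM in VTP-50469 libraries, a 25.2-fold rise (log2 fold change 4.66 ± 0.52, SE; adjusted p = 3.03e-08). HIST1H2AC, a histone H2A gene whose transcripts can be polyadenylated, rose 12.8-fold. It had 196, 186 and 198 CPM in the combination against 16.1, 15.4 and 13.5 CPM with VTP-50469. Histone genes are near copies of each other and many of their transcripts lack a poly(A) tail, so their counts are uncertain. The 10 largest falls were those of SPTB, SCN4A, NPPC, MMP1, CTXN1, S100P, SPARC, GPR84, C5AR1 and AKR1C2. SPTB, which encodes erythroid beta-spectrin, had no count in the combination libraries and 16.2, 6.47 and 17.4 CPM in VTP-50469 libraries, and was at least 259-fold lower against a floor of 3 counts over the group. SCN4A, a voltage-gated sodium channel gene, was likewise without a count in the combination and had 8.97, 5.82 and 8.53 CPM with VTP-50469, at least 151-fold lower. MMP1, the interstitial collagenase, had 2 counts in all in the combination against 320 with VTP-50469, a ratio of 159 (95% exact interval 43.6 to 1316, for counting error only). SPARC and NPPC rested on VTP-50469 replicate 2 for most of their level: SPARC had 0.31, 0 and 0.0993 CPM in the combination and 4.43, 26.1 and 3.12 CPM with VTP-50469. AKR1C2 shares most of its sequence with AKR1C1, and the division of reads between such copies is uncertain.

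Ranked by adjusted p among genes that changed at least 2-fold, the lower genes were led by TGFBR1, UNG, MCM3, PAICS, BATF3, DTL, RANBP1 and MCM7. TGFBR1, the type I receptor of TGF-beta, had 158, 166 and 164 CPM in the combination and 482, 517 and 488 CPM with VTP-50469 (log2 fold change -1.61 ± 0.07, adjusted p = 3.99e-16). BATF3, a transcription factor of the AP-1 superfamily, fell 10.2-fold, to 3.93, 3.38 and 3.77 CPM in the combination, against 39.3, 32 and 42.2 CPM with VTP-50469. UNG removes uracil from DNA, PAICS and RANBP1 serve purine synthesis and nuclear transport, and DTL and the MCM genes belong to DNA replication, described further on. The higher genes were led by SESN3, FOSL2, NACC2, SCUBE1, SYNPO, NGFR, TP53INP2 and NAPSB. SESN3, a sestrin that restrains mTORC1 and is a FOXO target, had 203, 228 and 208 CPM in the combination and 34.5, 42.2 and 36.8 CPM with VTP-50469 (log2 fold change 2.49 ± 0.11, adjusted p = 2.23e-15). NGFR, the low-affinity neurotrophin receptor, had 63.5, 68.1 and 69.9 CPM in the combination and 11.3, 8.53 and 10 CPM with VTP-50469, a 6.74-fold rise.

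The feedback inhibitors and direct transcriptional readouts of ERK were mostly lower. Of 18 tested members of a list of ERK feedback genes and ERK-dependent factors, 14 were lower in the combination. The other 4 were not called, and 3 of them had a log2 fold change above 0, up to 1.79. The median log2 fold change was -1.34 against 0.00072 over all genes tested. The same 14 of 18 count was found without VTP-50469 replicate 2 (median -1.19). SPRY4, a Sprouty protein that blocks RAS activation upstream of RAF, had 8.12, 7.08 and 11.3 CPM in the combination and 54.1, 78.9 and 60.3 CPM with VTP-50469, so the 2 groups lay far apart (log2 fold change -2.87 ± 0.18, adjusted p = 1.58e-11). SPRY2 had 23, 20.9 and 28.6 CPM in the combination and 78.7, 66.5 and 68.3 CPM with VTP-50469 (log2 fold change -1.56 ± 0.12, adjusted p = 9.64e-12). SPRED2, which inactivates RAS through neurofibromin, was less reduced, with 20.1, 24.7 and 28.1 CPM in the combination and 52.1, 52.7 and 53.6 CPM with VTP-50469.

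The phosphatases that strip phosphate from ERK were also lower. DUSP6, which is specific for ERK in the cytoplasm, was at 0.828, 1.16 and 1.89 CPM in the combination and at 12.7, 23.3 and 13.7 CPM with VTP-50469, a 12.7-fold fall (log2 fold change -3.67 ± 0.37, adjusted p = 1.64e-08; -3.34 without replicate 2). DUSP4, a nuclear phosphatase of the same family, had 20.1, 21 and 21 CPM in the combination against 41.4, 44.3 and 40.7 CPM with VTP-50469, a fall of 1.02 on the log2 scale. The ETS factors of the PEA3 group, which ERK signalling induces, were among the steepest falls of the list. ETV4 had 0.466, 0.211 and 1.19 CPM in the combination and 20.7, 25.3 and 19.1 CPM with VTP-50469 (log2 fold change -5.09 ± 0.52, adjusted p = 3.27e-07). ETV5 had 10.1, 10.1 and 7.1 CPM in the combination and 31.6, 67 and 33.2 CPM with VTP-50469; its log2 fold change was -2.27, and -1.83 without replicate 2, which was the highest library. PHLDA1 showed the same dependence, with 17.5, 23 and 20.4 CPM in the combination and 26.4, 70.4 and 26.9 CPM with VTP-50469 (log2 fold change -1.02, adjusted p = 0.0109; -0.39 and 0.0428 without replicate 2). CCND1, the cyclin D1 gene that links ERK to the cell cycle, was at 7.24, 7.61 and 5.61 CPM in the combination and at 96.4, 96.2 and 93.1 CPM with VTP-50469, a 14-fold fall (log2 fold change -3.81 ± 0.24, adjusted p = 5.53e-10).

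**Figure D2:**
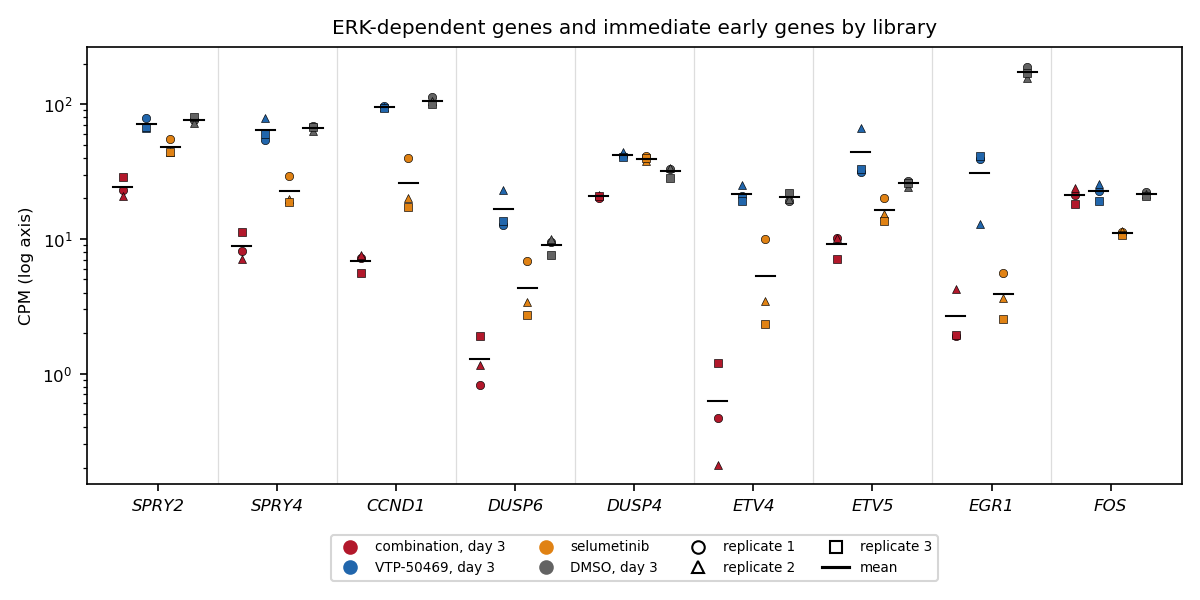
CPM on a log axis of 8 ERK-linked genes and FOS in each library, by group, with replicates as symbols and group means as black lines. The combination libraries lie below the VTP-50469 libraries for every gene shown except FOS, at 21.1, 23.9 and 18.3 CPM in the combination and 22.8, 25.6 and 19.3 CPM with VTP-50469.

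The promoters of 2 Sprouty genes are shown because these genes had the smallest adjusted p of the list. They cover 250 bases before to 50 bases after the start site in RefSeq on GRCh38.p14, for SPRY2 the most upstream of 3 starts, and capitals mark matches to 4 motifs searched on both strands: the ETS core CCGGAA, the AP-1 site TGANTCA, the cyclic AMP response element TGACGTNA and the CArG box.
SPRY2, chr13:80341077-80341376, minus strand: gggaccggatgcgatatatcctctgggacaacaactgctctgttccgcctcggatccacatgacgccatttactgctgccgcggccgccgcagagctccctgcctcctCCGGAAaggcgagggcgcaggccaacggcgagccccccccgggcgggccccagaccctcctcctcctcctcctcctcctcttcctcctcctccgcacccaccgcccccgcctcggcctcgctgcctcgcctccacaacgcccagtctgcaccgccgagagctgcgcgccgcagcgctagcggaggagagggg
SPRY4, chr5:142324198-142324497, minus strand: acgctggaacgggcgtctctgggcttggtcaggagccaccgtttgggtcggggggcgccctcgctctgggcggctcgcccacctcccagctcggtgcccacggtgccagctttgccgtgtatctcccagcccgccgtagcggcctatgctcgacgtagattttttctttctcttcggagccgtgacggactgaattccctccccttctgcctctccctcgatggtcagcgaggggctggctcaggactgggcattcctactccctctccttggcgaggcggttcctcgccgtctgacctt
The SPRY2 window held 1 ETS core, 142 to 137 bases before the start, written as -142 to -137, and the SPRY4 window held none of the 4 motifs. Of the 14 genes that were lower, 9 matched the RefSeq table with 18 windows, some of which overlap. The ETS core was in 6 of the 18 windows (33.3%) and in 17.2% of all 35116 windows of the table, and the AP-1 site in 1 of 18 (5.56%) and in 7.71% of all. The cyclic AMP response element and the CArG box, which 3.01% and 1.29% of all windows hold, were in none of the 18. A match in such a window is a description and not a site of binding.

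Immediate early genes, the first transcripts that growth signals induce, were more often lower than higher. Of 29 tested, 14 were lower, 7 higher and 8 not called (median log2 fold change -0.36). Without replicate 2, 14 were lower and 5 higher. Over all genes tested 24% were lower and 18.2% higher, and 23.5% and 17.9% without that library. EGR1, the early growth response factor, had 1.91, 4.22 and 1.94 CPM in the combination and 39, 12.8 and 41.1 CPM with VTP-50469 (log2 fold change -3.53 ± 0.51, adjusted p = 4.41e-05). Its relative EGR3 fell by 5.02 on the log2 scale, and ATF3 (-2.41), DUSP2 (-2.63), NR4A1 (-2.05) and FOSL1 (-1.41) were lower as well. FOSL2, another FOS family member, moved the other way, with 566, 607 and 571 CPM in the combination and 236, 223 and 240 CPM with VTP-50469, a 2.49-fold rise (adjusted p = 2.91e-15). KLF4 (1.08) and KLF2 (0.60), Krüppel-like factors of myeloid and lymphoid cells, were higher. FOS was not called (log2 fold change -0.10 ± 0.14, adjusted p = 0.615).

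The components of the cascade itself changed in both directions: of 26 tested, 8 were higher and 7 lower (median 0.03, range -2.09 to 1.30; 7 and 8 without replicate 2). MAP2K1, which encodes the drug target MEK1, had 48.4, 55.7 and 49.5 CPM in the combination and 71.7, 94.2 and 70.2 CPM with VTP-50469 (log2 fold change -0.62 ± 0.09, adjusted p = 2.8e-06). RPS6KA2, an ERK-activated RSK kinase, was the steepest, with 8.48, 10.3 and 11.6 CPM in the combination and 48.6, 32.5 and 48.4 CPM with VTP-50469 (log2 fold change -2.09). The exchange factor SOS1, which loads RAS with GTP, was higher, with 78.2, 77.7 and 75.9 CPM in the combination against 42.2, 43 and 38.8 CPM with VTP-50469 (log2 fold change 0.90). PTPN11, which encodes the SHP2 phosphatase, was lower (-0.75) and NRAS was called higher with all libraries (0.21, adjusted p = 0.0302) but not without replicate 2 (0.17, adjusted p = 0.103).

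Receptors upstream of RAS were more often higher, with 12 of 27 tested members higher and 2 lower (median log2 fold change 0.65; 11 and 3 without replicate 2). FLT3, the receptor tyrosine kinase of early myeloid cells and a menin-KMT2A target, had 222, 207 and 207 CPM in the combination and 63.9, 37.8 and 57.5 CPM with VTP-50469 (log2 fold change 2.00 ± 0.12, adjusted p = 5.23e-13). DMSO libraries had 99.6, 101 and 105 CPM, so the combination libraries lay above both the VTP-50469 and the DMSO libraries. CSF1R, the macrophage colony-stimulating factor receptor, had 20.7, 21.6 and 17.1 CPM in the combination and 1.5, 1.55 and 1.07 CPM with VTP-50469, a 14.3-fold rise. CSF3R, the granulocyte colony-stimulating factor receptor, had 150, 126 and 130 CPM in the combination and 74.4, 53.9 and 73.5 CPM with VTP-50469 (1.01).

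MYC and the genes of ribosome production were lower throughout their list: 24 of 24 tested members were called lower, with and without replicate 2 (median log2 fold change -1.08 and -1.17). MYC had 136, 160 and 175 CPM in the combination and 614, 428 and 584 CPM with VTP-50469, a 3.45-fold fall (log2 fold change -1.79 ± 0.11, adjusted p = 1.14e-12). NOP56, a core protein of the particles that modify ribosomal RNA, had 130, 128 and 129 CPM in the combination and 333, 263 and 332 CPM with VTP-50469 (-1.26). NCL, which encodes nucleolin, had 640, 739 and 706 CPM in the combination and 1494, 1321 and 1515 CPM with VTP-50469 (-1.05). NPM1, the nucleolar gene that is mutated in this line, had 1034, 1341 and 1273 CPM in the combination and 1953, 1417 and 1882 CPM with VTP-50469 (-0.53 ± 0.09, adjusted p = 2.62e-05); the lowest VTP-50469 library, replicate 2, lay just above the highest combination library.

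The genes that start and carry out DNA replication were lower without exception among those tested, while the genes of mitosis moved much less. All 34 tested members of the DNA replication list were called lower, with and without replicate 2 (median log2 fold change -1.54 and -1.49). MCM3, a subunit of the replicative helicase, had 69.2, 77.5 and 74.4 CPM in the combination and 255, 307 and 262 CPM with VTP-50469 (-1.90 ± 0.09, adjusted p = 6.29e-16). MCM10, which helps the helicase to start, had 13.3, 12.9 and 11.5 CPM in the combination and 77.7, 82.7 and 77.3 CPM with VTP-50469 (-2.65). CDC45, another helicase cofactor, had 7.19, 9.77 and 11.8 CPM in the combination and 62.2, 65.7 and 61 CPM with VTP-50469 (-2.71), and PCNA, the sliding clamp of the polymerases, had 93.9, 100.2 and 98 CPM in the combination and 230, 230.1 and 222 CPM with VTP-50469 (-1.22).

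The MCM3 promoter is shown because MCM3 had the smallest adjusted p of the list and its window held TTTNNCGC, a form of the E2F site. Such a match was a condition for being shown, and the choice was made with the values known. Capitals mark these letters on either strand.
MCM3, chr6:52284693-52284992, minus strand: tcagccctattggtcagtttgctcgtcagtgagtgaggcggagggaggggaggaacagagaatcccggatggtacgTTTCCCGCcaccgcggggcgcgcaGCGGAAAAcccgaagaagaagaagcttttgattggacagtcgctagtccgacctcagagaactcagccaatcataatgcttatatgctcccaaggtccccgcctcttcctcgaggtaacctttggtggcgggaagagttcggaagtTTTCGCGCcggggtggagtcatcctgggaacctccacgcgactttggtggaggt
It held 3 matches, at -174 to -167, -150 to -143 and -4 to 3 from the start. Of the 34 genes, 30 matched the RefSeq table with 38 windows, of which 19 (50%) held the letters, against 6.89% of all windows in the table.

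Regulators of the G1 phase changed in both directions: of 23 tested, 13 were lower and 8 higher (12 and 9 without replicate 2). E2F1, which activates S phase genes, had 6.41, 5.28 and 7.6 CPM in the combination and 41.3, 52.8 and 41 CPM with VTP-50469 (log2 fold change -2.81 ± 0.16, adjusted p = 1.98e-14). The phosphatase CDC25A (-2.19), the kinases CDK4 (-1.36) and CDK2 (-1.15) and CCND1 were lower too. The 8 higher genes included the kinase inhibitors CDKN1A (0.56), CDKN1B (0.38), CDKN1C (2.58), CDKN2B (1.57) and CDKN2C (0.89), which halt the cell cycle, and the kinase CDK6. CDK6 had 290, 336 and 296 CPM in the combination and 196, 315 and 203 CPM with VTP-50469, so that replicate 2 overlapped with the combination (0.37, adjusted p = 0.0171; 0.62 without it, adjusted p = 4.07e-08). Of 30 mitosis genes, 19 were lower and 3 higher, with a median of only -0.28, and without replicate 2 the counts were 13 and 2. MAD2L1, a spindle checkpoint protein, was lower, with 63.1, 62 and 59.1 CPM in the combination and 140, 148 and 147 CPM with VTP-50469 (-1.24), whereas MKI67, the proliferation antigen, was not called, with 300.5, 333 and 292 CPM in the combination and 281, 352 and 306 CPM with VTP-50469 (-0.02 ± 0.10).

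The deepest median of all lists was that of the amino acid and unfolded protein stress genes, the targets of the transcription factor ATF4 and of the endoplasmic reticulum response. Of 24 tested, 22 were lower and 2 were not called (median log2 fold change -1.999; 23 lower and a median of -2.10 without replicate 2). ATF4 itself had 388, 409 and 431 CPM in the combination and 1197, 938 and 1180 CPM with VTP-50469 (-1.43 ± 0.11, adjusted p = 5.94e-11). SLC7A5, the light chain of the leucine transporter, had 88.6, 101 and 94.9 CPM in the combination and 1484, 1228 and 1463 CPM with VTP-50469, a 14.7-fold fall. PSAT1, an enzyme of serine synthesis, had 56.2, 58.2 and 66.2 CPM in the combination and 696, 555 and 689 CPM with VTP-50469 (-3.42). CHAC1, which degrades glutathione, had 6.46, 5.86 and 8.34 CPM in the combination and 112, 79.5 and 103 CPM with VTP-50469 (-3.83 ± 0.30, adjusted p = 2.8e-08). The lower genes further included the heavy chain SLC3A2 (-2.33), the cystine transporter SLC7A11 (-2.11), the serine hydroxymethyltransferase SHMT2 (-1.58), the mTORC1 inhibitor DDIT4 (-4.23), the secreted stanniocalcin STC2 (-4.98) and XBP1 (-1.89), a transcription factor of the unfolded protein response. In each of these genes the highest combination library was below the lowest VTP-50469 library.

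The CHAC1 promoter is shown as the one with the smallest adjusted p among the lower genes of this list whose window held TGATGNAA, a composite C/EBP-ATF element, on either strand; the choice was made after the values were seen.
CHAC1, chr15:40953221-40953520, plus strand: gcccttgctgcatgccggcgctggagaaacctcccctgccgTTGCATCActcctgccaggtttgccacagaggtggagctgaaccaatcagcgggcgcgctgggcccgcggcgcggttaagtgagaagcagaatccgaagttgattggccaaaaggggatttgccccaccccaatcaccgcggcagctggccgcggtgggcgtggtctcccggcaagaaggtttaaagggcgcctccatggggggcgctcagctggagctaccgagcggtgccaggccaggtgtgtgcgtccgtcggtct
The match was on the reverse strand, at -209 to -202 from the start. Of the 22 genes, 19 matched the table with 29 windows, and 4 of these (13.8%) held the letters, against 3.62% of all windows.

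**Figure D3:**
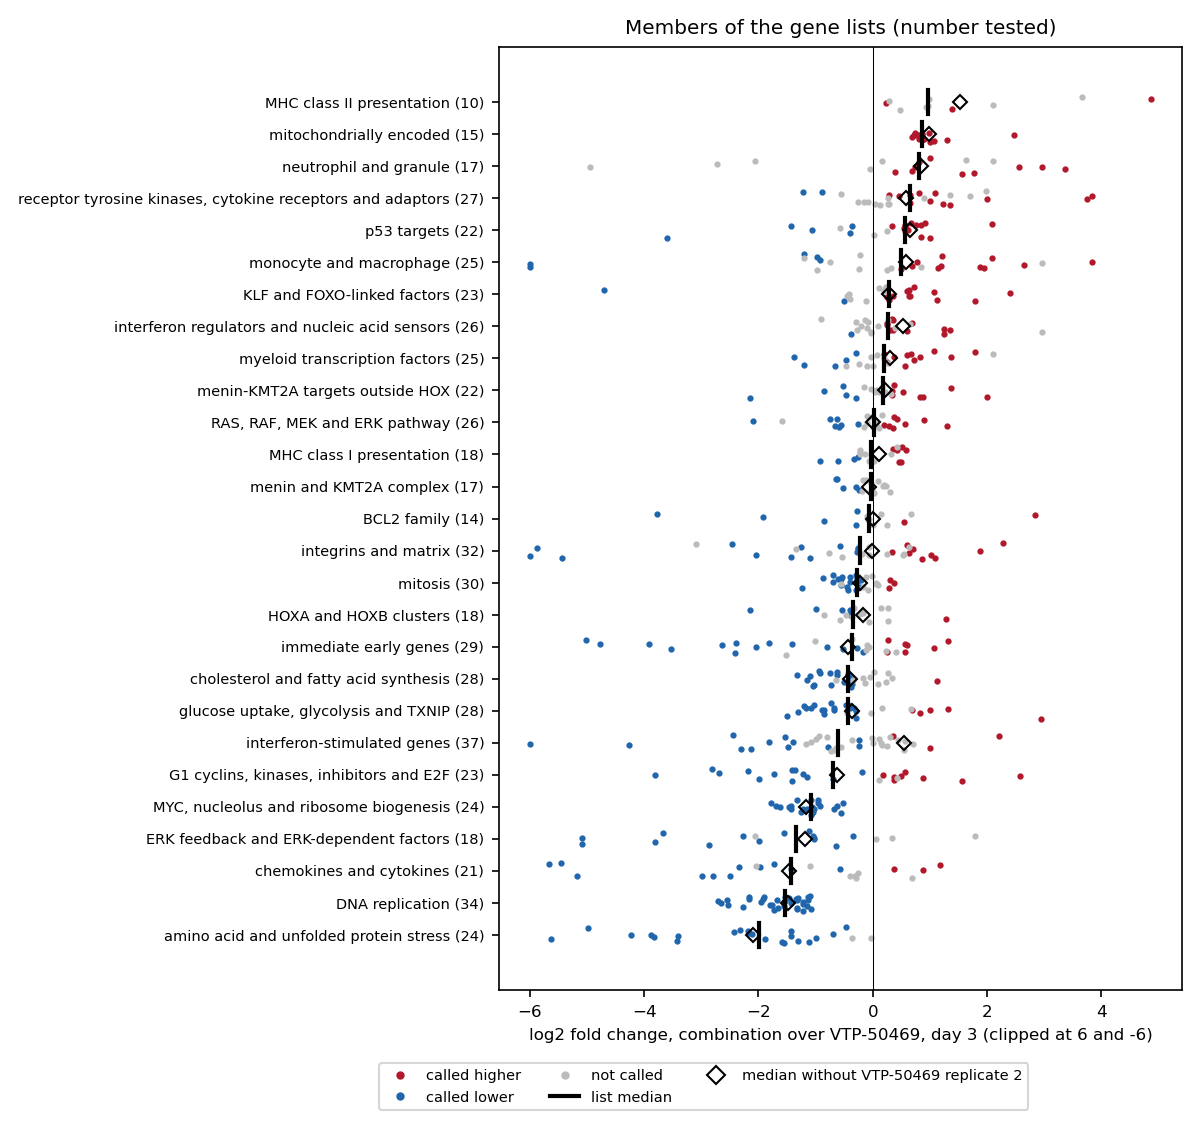
Log2 fold changes of the combination over VTP-50469 at day 3 for the tested members of the 27 gene lists, with called members in red (higher) and blue (lower), list medians as bars and medians without VTP-50469 replicate 2 as diamonds. Bars and diamonds lie close to each other for most lists, and lie on opposite sides of 0 for the interferon-stimulated genes (-0.61 and 0.55), the BCL2 family (-0.07 and 0.01) and MHC class I presentation (-0.02 and 0.12).

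Genes of lipid synthesis and of glucose breakdown were lower by smaller amounts. In the cholesterol and fatty acid synthesis list 17 of 28 were lower and 1 higher (median -0.43; 15 and 3 without replicate 2). SCD, the stearoyl-CoA desaturase, had 144, 183 and 172 CPM in the combination and 396, 481 and 376 CPM with VTP-50469 (-1.33), and FASN, the fatty acid synthase, had 424, 440.1 and 439 CPM in the combination and 832, 1024 and 823 CPM with VTP-50469 (-1.04). SREBF1, which encodes the factor that drives these genes, was lower as well (-1.15). Of 28 genes of glucose uptake and glycolysis, 19 were lower and 5 higher (median -0.44; 18 and 6 without replicate 2). ENO1, the enolase gene, had 843, 941 and 992 CPM in the combination and 1747, 1638 and 1730 CPM with VTP-50469 (-0.88), and the glucose transporter SLC2A1 was lower as well (-1.07). PDK4, a kinase that inhibits pyruvate dehydrogenase, went up (log2 fold change 2.95 ± 0.24, adjusted p = 1.23e-10). It had 35.6, 36.7 and 32.3 CPM in the combination and 3.97, 6.27 and 3.27 CPM with VTP-50469. TXNIP, which inhibits glucose uptake, had 1883, 1972 and 1967 CPM in the combination and 1179, 939 and 1178 CPM with VTP-50469 (0.82). The 15 mitochondrially encoded genes were all called higher, with and without replicate 2 (median 0.86 and 0.99), the steepest being the ribosomal RNA MT-RNR1, with 2801, 2987 and 2875 CPM in the combination and 458, 590.5 and 518 CPM with VTP-50469 (2.47). The mitochondrial share given above was counted over all mitochondrially encoded genes, of which these 15 are part.

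Genes of monocytes and granulocytes were called higher more often than lower in the combination. Of 25 tested genes of monocytes and macrophages, 11 were higher and 5 lower (median 0.50; 14 and 5 without replicate 2). LYZ, the lysozyme gene, had 407, 400.4 and 422 CPM in the combination and 94.5, 93.4 and 102 CPM with VTP-50469 (2.08 ± 0.11, adjusted p = 1.8e-13), and VCAN, a proteoglycan of monocytes, had 172, 185 and 161 CPM in the combination and 27.2, 25.9 and 29.7 CPM with VTP-50469 (2.65). ITGAM, which encodes CD11b, had 24.1, 31.6 and 20.4 CPM in the combination and 4.33, 13.3 and 2.86 CPM with VTP-50469 (1.89; 2.82 without replicate 2). Against this direction, CD14, the lipopolysaccharide co-receptor of monocytes, had 1 count in all in the combination and 197 with VTP-50469, a ratio of 195 (95% exact interval 34.7 to 7755). C5AR1, the complement C5a receptor, was at 0.362, 0 and 0 CPM in the combination and at 12, 3.66 and 11.6 CPM with VTP-50469 (-6.16 ± 0.93, adjusted p = 2.86e-05).

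In the neutrophil and granule list 10 of 17 were higher and 7 were not called (median 0.80; 8 higher without replicate 2). S100A8, a calcium-binding protein abundant in neutrophils and monocytes, had 37.1, 26.5 and 30.7 CPM in the combination and 3.35, 3.41 and 2.35 CPM with VTP-50469, a 10.3-fold rise, and its partner S100A9 rose by 1.56 on the log2 scale. RNASE3, a granule ribonuclease, had 33.7, 33.3 and 40.2 CPM in the combination and 6.24, 5.57 and 6.44 CPM with VTP-50469 (2.56). ELANE, the neutrophil elastase gene, overlapped between the groups, with 989, 1080 and 1175 CPM in the combination and 1007, 574 and 896 CPM with VTP-50469, and was called only with replicate 2 in the fit (0.39, adjusted p = 0.0362; 0.19 and 0.0873 without it). Of 25 myeloid transcription factors, 11 were higher and 5 lower (13 and 7 without replicate 2). CEBPA (0.67) and SPI1 (0.56), master regulators of the myeloid lineage, and RUNX2 (1.38) were higher. GFI1 (-0.48), a transcriptional repressor found in granulocyte precursors, was lower. In the MHC class II list 3 of 10 were higher and 7 not called (4 without replicate 2). HLA-DRA had 2.43, 2.32 and 3.77 CPM in the combination and 1.29, 1.41 and 0.562 CPM with VTP-50469 (1.39 ± 0.41, adjusted p = 0.00738).

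Targets of the menin-KMT2A complex did not move as a block. Outside the HOX clusters 9 of 22 were higher and 5 lower (median 0.18; 11 and 5 without replicate 2). MEIS1, the HOX cofactor that menin inhibitors lower in many leukaemias, had 41.1, 49.3 and 40.4 CPM in the combination and 32.2, 45.5 and 38.4 CPM with VTP-50469; it was not called with all libraries (0.17, adjusted p = 0.258) and was called higher without replicate 2 (0.30, adjusted p = 0.0451). PBX3 and MEF2C were not called in either fit (0.31 and -0.16; 0.15 and 0.12 without replicate 2). Of 18 HOXA and HOXB genes, 5 were lower and 1 higher in both fits. HOXA9 had 72.7, 74.5 and 70.1 CPM in the combination and 105, 82.1 and 99.8 CPM with VTP-50469 (-0.40 ± 0.10, adjusted p = 0.00105), and HOXB9 was the steepest called member (-2.15). Of 17 genes of the complex itself, 5 were lower and 12 were not called (1 higher and 4 lower without replicate 2), among the lower ones MEN1, the menin gene, with 67.6, 69.5 and 78.6 CPM in the combination and 86.3, 91.9 and 86.8 CPM with VTP-50469 (-0.30). KMT2A was not called (0.23, adjusted p = 0.221).

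The BCL2 family, which decides between survival and apoptosis, changed in single members: 2 of 14 were higher and 5 lower in both fits. BMF, a BH3-only killer protein, had 173, 179.9 and 166 CPM in the combination and 21, 31.9 and 19.4 CPM with VTP-50469, a 7.17-fold rise (2.84 ± 0.19, adjusted p = 2.14e-10). BCL2L11, the gene of the killer protein BIM that ERK marks for degradation, had 147, 156 and 134 CPM in the combination and 96.2, 103 and 99.6 CPM with VTP-50469 (0.55). PMAIP1, which encodes NOXA, went down, with 21.4, 19.7 and 24.2 CPM in the combination and 84.1, 83 and 80.9 CPM with VTP-50469 (-1.93). Of the survival genes, BCL2 had 112, 119.8 and 117 CPM in the combination and 235, 155 and 242 CPM with VTP-50469 (-0.86 ± 0.14, adjusted p = 3.89e-05), and MCL1 was not called (-0.06, adjusted p = 0.423). Of 22 p53 target genes, 14 were higher and 5 lower in both fits (median 0.56 and 0.65). The higher ones included MDM2 (0.58), TP53INP1 (2.09), CCNG1 (0.66) and BTG2 (1.01); the lower ones included SESN2 (-1.43) and GDF15 (-3.59), and SESN2 is also a target of ATF4. Of 23 KLF and FOXO-linked genes, 13 were higher and 2 lower (median 0.28; 12 and 1 without replicate 2), with rises of PIK3IP1 (2.40), an inhibitor of PI3 kinase, FOXO4 (1.13), FOXO3 (0.63) and KLF13 (0.62).

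Secreted signals were mostly lower: of 21 tested chemokine and cytokine genes 11 were lower and 3 higher (median log2 fold change -1.42; 10 and 2 without replicate 2). CXCL8, the neutrophil attractant interleukin-8, had 10.1, 8.61 and 9.73 CPM in the combination and 83, 43.2 and 70.5 CPM with VTP-50469 (-2.79 ± 0.19, adjusted p = 2.1e-10). TNF had 6.1, 3.96 and 4.47 CPM in the combination and 36.8, 42.8 and 35.5 CPM with VTP-50469 (-2.98), and CCL5 had 58.6, 61.7 and 62.4 CPM in the combination and 163, 156 and 172 CPM with VTP-50469 (-1.43). VEGFA, the vascular growth factor gene, was lower too (-1.98). CXCL11, a chemokine that interferon induces, had 0.776, 0.475 and 0.348 CPM in the combination and 13, 59.5 and 9.5 CPM with VTP-50469, and its log2 fold change was -5.67 with replicate 2 and -4.39 without it.

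Interferon-stimulated genes depended on VTP-50469 replicate 2, and had the most sign changes without it of the 27 lists. The 5 genes given in full were chosen after their values were seen, except MX1. Of 37 tested, 12 were lower and 3 higher with all libraries (median log2 fold change -0.61), and 2 were lower and 18 higher without that library (median 0.55); 16 of the 37 turned sign. OAS1, a sensor of double-stranded RNA, had 37.9, 42.1 and 39.9 CPM in the combination and 6.8, 58.6 and 8.12 CPM with VTP-50469. The combination libraries thus lay between the VTP-50469 libraries, above replicates 1 and 3 and below replicate 2, and OAS1 was not called with it (0.70, adjusted p = 0.341) but was called higher without it (2.42, adjusted p = 7.96e-10). IFIT1 had 5.48, 6.76 and 7.84 CPM in the combination and 4.07, 36.6 and 1.89 CPM with VTP-50469 (-1.08, not called; 1.17, adjusted p = 0.00228 without replicate 2). IFIT3 had 10.6, 12.5 and 10.4 CPM in the combination and 6.24, 51.2 and 6.23 CPM with VTP-50469 (-0.93, not called; 0.84, adjusted p = 0.0015). ISG15, the interferon-induced ubiquitin-like protein, had 19.1, 13.6 and 16.2 CPM in the combination and 18, 96.5 and 14.4 CPM with VTP-50469; it was called lower with replicate 2 (-1.40, adjusted p = 0.0471) and was at 0.01 without it (adjusted p = 0.974). MX1, an antiviral GTPase, had 2.74, 1.06 and 2.53 CPM in the combination and 2.99, 11.3 and 3.32 CPM with VTP-50469 (-1.48, adjusted p = 0.00872; -0.57 and 0.121 without replicate 2).

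Of the 37 genes, 5 were called in the same direction in both fits, 3 of them higher and 2 lower. GBP2, a guanylate-binding protein, had 12.7, 9.72 and 7.8 CPM in the combination and 1.7, 3.46 and 1.38 CPM with VTP-50469 (2.20, and 2.71 without replicate 2), and RSAD2, the antiviral protein viperin, was higher in both (1.01 and 1.66). Of 26 regulators and sensors of the pathway, 11 were higher and 1 lower (15 and 1 without replicate 2). STAT2, a subunit of the interferon-activated transcription factor, had 139, 118 and 113 CPM in the combination and 40, 67.8 and 47.3 CPM with VTP-50469 (1.26 ± 0.16, adjusted p = 2.35e-06), and IRF5 (1.35) and JAK2 (1.24) were higher as well. At day 6 the means were 110 CPM in the combination and 229.7 CPM with VTP-50469 for OAS1, 42.4 and 203 CPM for IFIT1, and 92.9 and 478 CPM for ISG15. There 33 of the 37 genes were lower in the combination and the other 4 were not called (median -1.46).

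**Figure D4:**
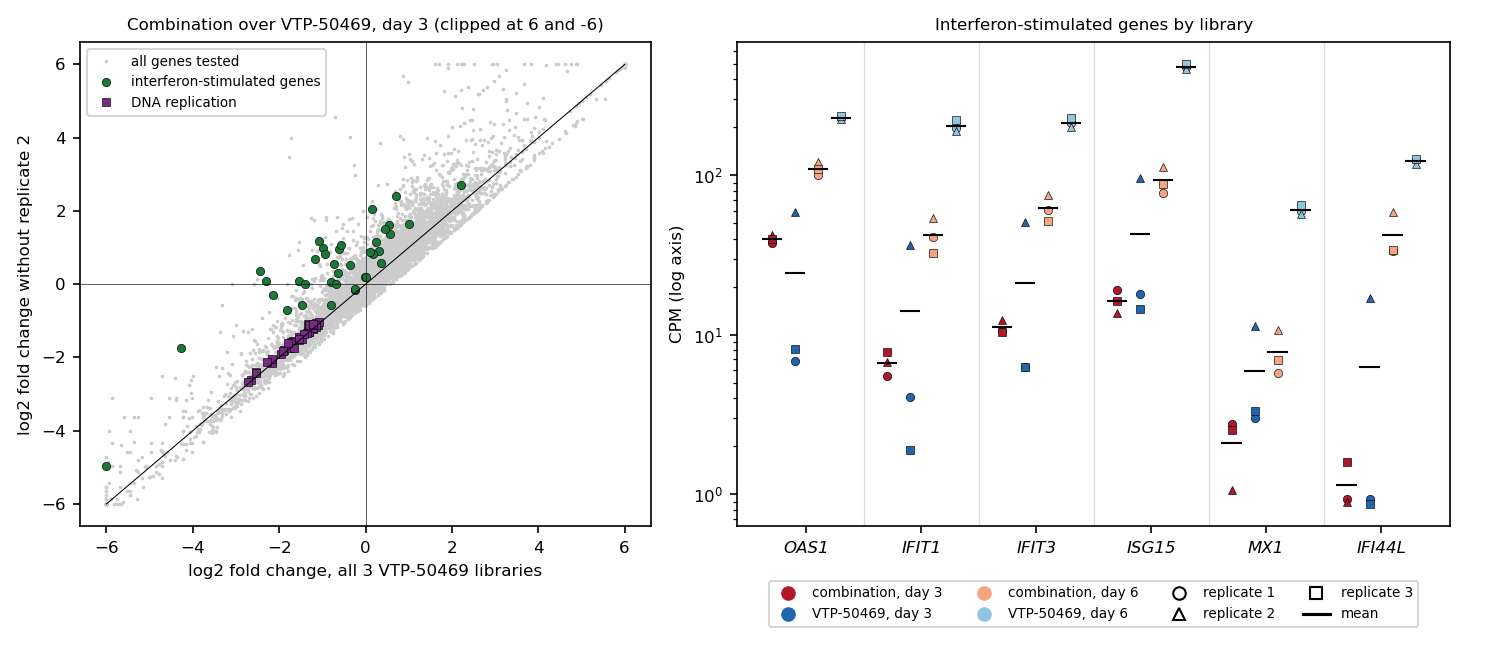
Left, log2 fold change of the combination over VTP-50469 at day 3 with all libraries (horizontal axis) and without VTP-50469 replicate 2 (vertical axis); right, CPM on a log axis of 6 interferon-stimulated genes in each library at day 3 and day 6. DNA replication genes lie on the diagonal, most interferon-stimulated genes lie above it, and replicate 2, the dark blue triangle, is above its partners in all 6 genes.

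At day 6 the same comparison, which shares no library with that at day 3, called 2737 genes higher (16.7%) and 4030 lower (24.6%), 41.3% in all. Of the genes that were higher at day 3, 1778 were higher at day 6 as well (59.7% of the day 3 set and 65% of the day 6 set), and of those that were lower, 2776 (70.7% and 68.9%). The call was opposite at day 6 in 39 genes that were higher and 48 that were lower at day 3. A test of the difference between the days itself called 1305 genes (7.97%), 570 with a larger log2 fold change at day 3 (3.48%) and 735 with a smaller one (4.49%); without VTP-50469 replicate 2 it called 2613 (15.9%), that is 1318 larger (8.04%) and 1295 smaller (7.9%), against 256 and 425 without replicate 1 and 250 and 446 without replicate 3. Lists whose members were called at both days included DNA replication (34 of 34 lower at day 6, median -1.24) and ERK feedback (14 of 18 lower, 1 higher, median -1.33). The day difference was called in 15 of the 24 MYC and ribosome production genes, each with a deeper fall at day 3, and in 8 of the amino acid stress genes that fell more deeply at day 3, with 1 the other way. MYC fell by 1.79 at day 3 and by 0.47 at day 6 on the log2 scale, with means of 265 CPM in the combination and 368 CPM with VTP-50469 at day 6 (adjusted p of the difference 1.81e-05). SESN3, FLT3 and LYZ kept close values at both days (2.49 and 2.15; 2.00 and 1.97; 2.08 and 2.08), and for these genes the day difference was not called.

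Selumetinib was also given without VTP-50469. The labels give its duration as 1 day in the protocol and the library names but day 3 in 2 of the 3 titles, and it was compared with DMSO at day 3, so time may differ between these groups and cannot be told apart from the drug. That comparison shares no library with the combination against VTP-50469. It called 1920 genes higher (11.7%) and 2562 lower (15.6%), 27.4% in all. How long selumetinib was present may also differ between the 2 comparisons, and this cannot be told apart from the presence of VTP-50469. Of the genes higher in the combination over VTP-50469, 1436 were also higher with selumetinib over DMSO (48.2% of the first set and 74.8% of the second), and of the lower ones 2191 (55.8% and 85.5%). A test of whether the 2 effects differ (the effect of selumetinib with VTP-50469 less its effect without it) called 1465 genes (8.94%), of which 437 were positive (2.67%) and 1028 negative (6.27%); without VTP-50469 replicate 2 it called 1805 (11%), and without selumetinib replicate 1, the library with another day in its title, it called 279 positive and 680 negative.

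Negative differences were called in part of several groups of growth genes. Of the DNA replication genes 24 of 34 were called, each negative, as were 18 of 24 genes of MYC and ribosome production, 11 of 24 amino acid stress genes, 15 of 28 cholesterol and fatty acid genes and 9 of 18 ERK feedback genes. In each of these lists selumetinib replicate 1 had the highest summed level of the selumetinib libraries. DNA replication genes summed to 2811 CPM there and to 2110 and 2157 CPM in replicates 2 and 3. Amino acid stress genes summed to 4464 CPM there and to 3177 and 3172 CPM. A higher level with selumetinib makes the difference more negative. The differences of single lists and genes were not computed without that library. MCM3 fell by 1.90 on the log2 scale in the combination over VTP-50469 and by 0.84 with selumetinib over DMSO, with 148, 122 and 116 CPM with selumetinib and 236, 227 and 226 CPM with DMSO (difference -1.06, adjusted p = 8.14e-07). SCD fell by 1.33 in the combination and was not called with selumetinib over DMSO (-0.09), with 439, 393 and 391 CPM with selumetinib and 430.1, 437 and 436 CPM with DMSO (difference -1.24, adjusted p = 9.99e-07). MYC (-1.10, adjusted p = 2.35e-05), CCND1 (-1.76, adjusted p = 0.00146) and DUSP6 (-2.60, adjusted p = 0.00123) had negative differences too.

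Immediate early genes went the other way: 11 of 29 had a positive difference and the other 18 were not called. FOS was lower with selumetinib over DMSO, at 11.2, 11.4 and 10.7 CPM with selumetinib and 22.3, 21.5 and 20.8 CPM with DMSO, and was not called in the combination over VTP-50469 (difference 0.86, adjusted p = 0.0058). KLF2 was lower with selumetinib over DMSO (-0.90) and higher in the combination over VTP-50469 (0.60; difference 1.49, adjusted p = 2.82e-06). TXNIP likewise had 703, 686 and 726 CPM with selumetinib and 922, 842 and 953 CPM with DMSO (-0.36), against a rise of 0.82 in the combination (difference 1.18, adjusted p = 2e-08). Among genes of monocytes and granulocytes, VCAN (difference 1.53) rose more in the combination over VTP-50469 than with selumetinib over DMSO. S100A9 rose in the former and was lower in the latter (-0.46, difference 2.02). LYZ (0.18, adjusted p = 0.603) and CSF1R (0.72, adjusted p = 0.347) were not called. The receptor gene FLT3 (difference 1.17) also rose more in the combination over VTP-50469.

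**Figure D5:**
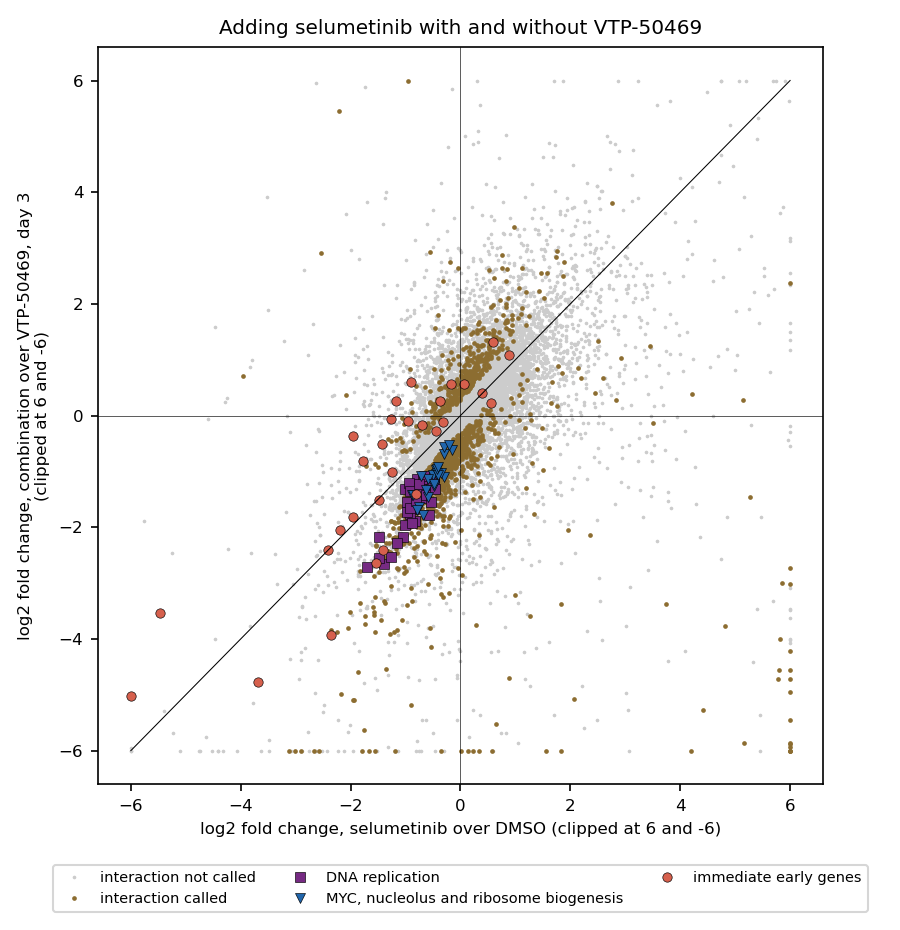
Log2 fold change of the combination over VTP-50469 at day 3 (vertical axis) against that of selumetinib over DMSO (horizontal axis) for all genes tested; brown points were called in the test of the difference. Many DNA replication and ribosome production genes lie below the diagonal and many immediate early genes above it.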

How the data were processed

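RNA sequencing was analysed for 21 OCI-AML3 libraries, 3 in each of 7 groups. Per the labels' protocols, polyadenylated RNA was made into unstranded TruSeq libraries, so reads of overlapping or antisense genes cannot be told apart, and near-identical genes may share reads. The deposited values were whole-number counts per gene, not normalized by the authors; the submitters' processing notes name STAR 2.11a, Subread 2.0.6 with featureCounts, DESeq2 1.44.0 and hg38. Of the 58869 genes in the table, 1 had an empty cell and was left out, and 3 columns that match no sample were not used. Gene positions came from GENCODE 29, while the table names GENCODE 30.

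Counts were tested with edgeR 4.0.16 (R 4.3.3, limma 3.58.1; filterByExpr, TMM scaling, robust quasi-likelihood fit of 7 group means to the 21 libraries), which left 16384 genes, with Benjamini-Hochberg adjusted p under 0.05 over all genes tested. Errors of log2 fold changes are standard errors. CPM were computed from the counts with TMM-scaled totals. Totals of the 21 libraries were 15561248 to 24262960. Floors (3 counts) and intervals (95%) cover counting error only. DESeq2 1.42.0 was an alternative. The fit was tested on simulated data.

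The members and gene lists were chosen with earlier results of these data known. Named were the 10 largest rises and falls among called genes without overlap and with at least 5 CPM in 1 group, the 8 smallest adjusted p in each direction with a log2 fold change beyond 1, up to 4 called genes of smallest adjusted p per list, and 31 genes followed whatever their result, of which 1 is not reported here; other genes named were chosen after their values were seen.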

Additional observations from a re-analysis of the deposited data

Results flagged for a closer look

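In 54 of the genes named above, the effect of the combination over VTP-50469 at day 3 differed from that at day 6, by a test of the difference itself (edgeR quasi-likelihood test, Benjamini-Hochberg adjusted p under 0.05), which 7.97% of all genes passed. The values are the log2 fold change at day 3 minus that at day 6, so a negative value means a lower combination level, relative to VTP-50469, at day 3. Without VTP-50469 replicate 2 the test passed 15.9% of all genes; 51 of the 54 kept the call, none turned sign, and DUSP4 (-0.42, adjusted p = 0.0527), RANBP1 (-0.31, adjusted p = 0.0759) and SPRY4 (-0.64, adjusted p = 0.0506) lost it. A further 26 of the named genes were called without that library only, among them IFIT1 (3.43), OAS1 (3.48), MX1 (2.39) and CDK6 (0.76). No explanation was tested.

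Of the ERK-linked and immediate early genes, the differences were CCND1 (-1.44), DUSP4 (-0.46), SPRY4 (-0.81), ATF3 (-1.57), EGR3 (-3.82), KLF4 (-1.23) and RPS6KA2 (-1.18). Growth and ribosome genes were MYC (-1.31), NCL (-0.34), NOP56 (-0.51), PAICS (-0.79) and RANBP1 (-0.39). Replication and cell cycle genes had differences of the same sign: MCM3 (-0.48), PCNA (-0.35), DTL (-0.55), UNG (-0.74), E2F1 (-1.07) and CDK4 (-0.45). In stress genes the values were XBP1 (-0.67), SLC3A2 (-0.56), SESN2 (-0.70) and GDF15 (-2.42), and in secreted signals CXCL8 (-2.08), TNF (-1.36) and VEGFA (-1.16). Myeloid and leukaemia genes were BCL2 (-0.96), CEBPA (-0.80), GFI1 (-1.07), HOXA9 (-0.64), S100A9 (-0.78), C5AR1 (-5.93), GPR84 (-4.60) and BATF3 (-1.21). Negative differences were also found for MDM2 (-0.35), TGFBR1 (-0.62), CTXN1 (-3.46) and SCN4A (-8.19); SCN4A had no count in the combination, so its fitted value depends on the prior count.

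Positive differences were found for BMF (1.20), BTG2 (0.53), TP53INP1 (1.05), PIK3IP1 (1.72), RUNX2 (0.40) and PDK4 (1.24). Lipid genes, which were lower at both days, had SCD (0.47) and SREBF1 (0.79). Interferon genes had GBP2 (2.03), RSAD2 (1.65) and STAT2 (0.99). The remaining ones were FAM13A (2.30), HIST1H2AC (1.18), HIST1H2BD (1.72), HIST1H4H (2.49), NAPSB (2.19) and NGFR (0.69).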

How the results depend on the processing

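The alternatives were other scalings (RLE size factors, library totals), other filters on low counts, DESeq2, a fit of the 6 libraries only, removal of mitochondrially encoded genes before scaling, and leaving out each library in turn; leaving out selumetinib replicate 1, and leaving out libraries other than VTP-50469 replicate 2 from the day difference and from the test against selumetinib alone were chosen after seeing the data. The list of mitochondrially encoded genes could not be computed with those genes removed. Of 70 counts over all genes, 60 stayed within 1.5 times. The day difference gave 1111 positive and 469 negative calls with library totals, 250 to 1318 positive and 425 to 1295 negative calls without a VTP-50469 library, and the test against selumetinib alone gave 279 to 553 positive and 680 to 1252 negative calls without 1 library, the fewest without selumetinib replicate 1. With library totals the share of higher genes among calls was 51.5%, against 43.1%.

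Leaving out each library in turn, the median log2 fold change ranged from -0.93 to 0.55 in interferon-stimulated genes and from -0.11 to 0.013 in the BCL2 family, which was also at 0.0093 with library totals. Over the same libraries FOS ranged from -0.20 to 0.0028, IFIT1 from -1.60 to 1.17, IFIT3 from -1.37 to 0.84, ISG15 from -1.81 to 0.011, MEF2C from -0.28 to 0.12, MKI67 from -0.091 to 0.072 and MPO from -0.77 to 0.35. All of these highest values but that of MPO were found without VTP-50469 replicate 2. MKI67 was at 0.015 with RLE size factors and with DESeq2 and at 0.057 with library totals, where MPO was at 0.014 and MCL1 at 0.017. Of the 152 genes followed, 141 kept their call without that replicate. Of the genes that turned sign, ISG15 alone was called with all libraries. The cause was not tested.

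No pairing by replicate number was seen. The correlations of same-numbered deviations between combination and VTP-50469 libraries were -0.0352, -0.00202 and -0.0173. Those of different-numbered deviations were -0.0203 to 0.0385. With 3 libraries per group, such values cannot show whether same-numbered libraries shared a culture. With the replicate number as a block, 2902 genes were higher and 3884 lower, the day difference gave 551 and 681 calls, and the test against selumetinib alone 419 and 966. In data simulated at this depth, with 16184 of 16384 genes left unchanged, 1.5-fold changes were recovered in 36 of 67 genes (53.7%). Of the 4-fold changes, 60 of 66 were recovered (90.9%). In the data themselves 42.2% of genes were called. The adjusted p depends on the share of changed genes, so these rates do not carry over to the comparison itself. Small changes may still go uncalled.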
